A study of Homo sapiens with 4 samples.

Results

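The transcripts described here are those of 45 human genes named as eukaryotic translation initiation factors, their subunits, their kinases or their binding partners, out of 20033 protein-coding genes and 62700 genes in all in GENCODE 44. They were taken by gene name, and the measure is the number of unique cDNAs on the strand of each gene, split by coding sequence (CDS), untranslated region (UTR) and intron. Each unique cDNA marks 1 crosslinking event between the FLAG-tagged dipeptide repeat protein PR100 and an RNA. The method was iiCLIP, in which UV light joins protein to RNA, the complexes are purified through the tag and the cDNAs truncated at the joined nucleotide are sequenced.

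All 4 libraries were made from HEK293T, an established human kidney-derived line, transiently transfected with a PR100-3xFLAG plasmid whose expression was switched on with 150 ng/ml doxycycline for 24 h before 160 mJ/cm2 of UV light. PR100 is a chain of proline-arginine repeats of the kind made from the C9orf72 hexanucleotide expansion, here overexpressed with a tag and without the repeat RNA of the patients' gene. SDS-PAGE was used to purify the complexes of replicates 1, 2 and 3, beads those of replicate 4, and the random barcode was 5 nt long in replicate 3 and 7 nt in the others. There was 1 condition, the control libraries were not analysed here, and the labels do not say whether replicates came from separate cultures, so errors cover the spread between these 4 libraries.

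Translation of most mRNAs starts when eIF4E, bound to the cap, and the scaffold eIF4G recruit the helicase eIF4A, which unwinds the leader. The large complex eIF3 holds the small ribosomal subunit, and eIF2 brings the initiator tRNA. eIF1, eIF1A and eIF5 control recognition of the start codon, and eIF5B joins the large subunit. The exchange factor eIF2B recharges eIF2, and 4 kinases shut eIF2 down under stress.

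The libraries held 334057, 604816, 125694 and 179636 events in replicates 1 to 4. The smallest library, replicate 3, had 2.16 events per crosslinked position against 1.15 to 1.67 in the others, and 13 of the 45 initiation factor genes had no event in it. The line's usual genes were present to unequal degrees: all 7 had events, from 1 for KRT18 to 1426 for NEFM, whereas 8 genes of other tissues held 35 events in all and 3 of them none. Counts on an RNA rise with its amount as well as with crosslinking per molecule, and these cannot be told apart here because no RNA level was measured.

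The 45 genes together collected 1255, 2381, 364 and 1032 events in replicates 1 to 4, which was 3757, 3937, 2896 and 5745 CPM (events per 1000000 events of the library), with a mean of 4084 ± 1197 (SD, n = 4). The beads library was the highest and replicate 3 the lowest. Pooled over libraries this came to 5032 events, or 0.404% of all events. Every gene was seen, from 5 events on EIF2B2, a subunit of the exchange factor, to 563 on EIF4G3, and the median was 55 events against 15 over all protein-coding genes. Events were concentrated in few genes: 3 genes held 32.1% and 8 genes 56.8% of them. These 8 passed a minimum of 200 pooled events, which 3.49% of protein-coding genes passed, and they were EIF4G3, EIF4G1, EIF3A, EIF4A2, EIF5B, EIF4G2, EIF4A1 and EIF3B. EIF3B was just inside the minimum with 222 events and EIF3E just outside with 187.

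**Figure D1:**
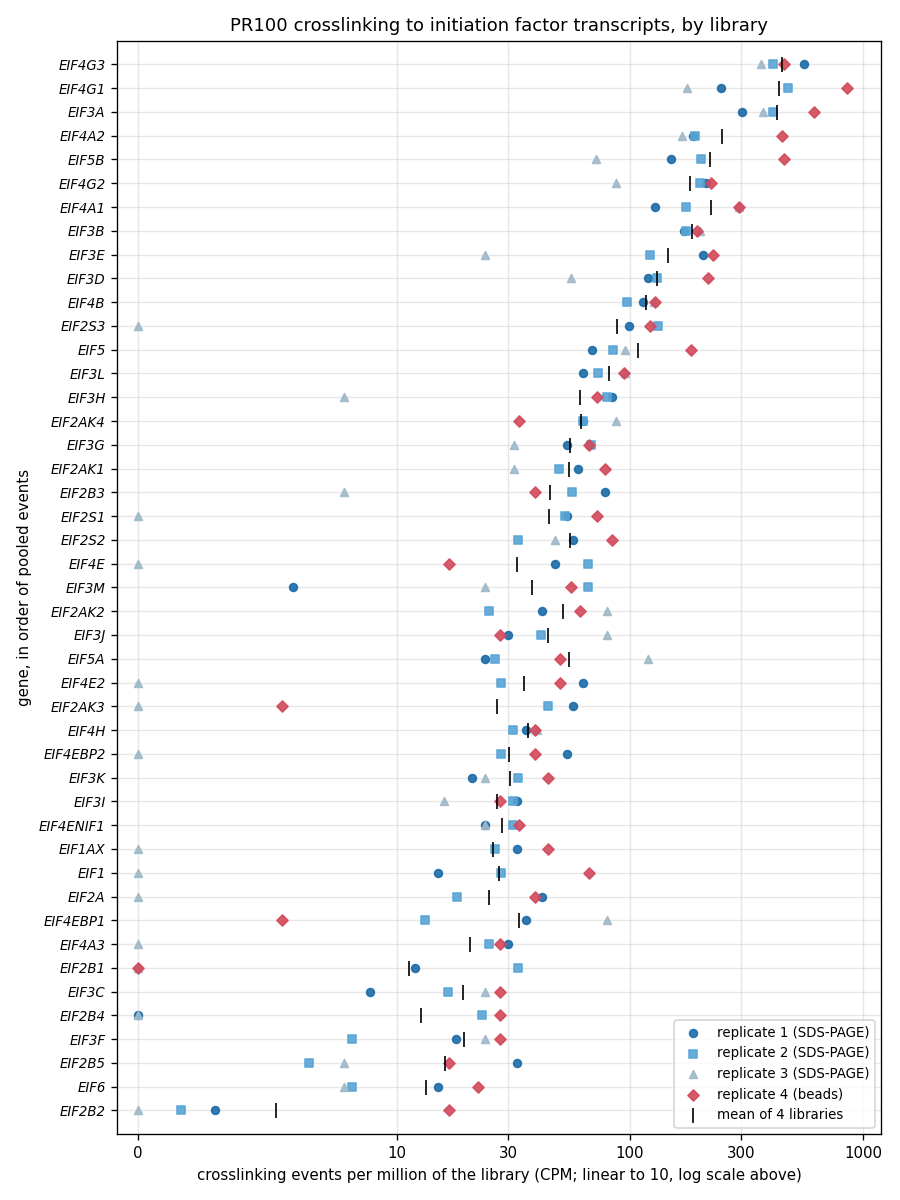
Crosslinking events as CPM of the library for each of the 45 genes (rows, in order of pooled events), with 1 point per library and the mean as a black bar; the axis is linear up to 10 CPM and logarithmic above. The leading rows lie above 100 CPM in nearly all libraries, and the triangles of replicate 3 are often the leftmost points, with 13 of them at 0.

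Within the genes, 2429 of the 5032 events (48.3%) lay in the CDS of the canonical transcript. The share was 36.2%, 52.0%, 43.1% and 56.2% in replicates 1 to 4 (mean 46.9% ± 8.98, SD, n = 4). In every library it was above the share over all protein-coding genes, which was 18.7%, 30.3%, 23.1% and 40.8%. Introns held 26.1% ± 9.12 of the events on these genes against 52.1% ± 11.9 over all protein-coding genes, and small RNA genes lying inside the genes held 10.8% ± 3.83 against 0.971%. The pooled list had 385 events in 3′ UTRs and 150 in 5′ UTRs. Taken gene by gene, the median CDS share was 39.8% over the 40 members with at least 20 events and 21.7% over the 9073 protein-coding genes with as many. Between members the layout differed in kind: some carried nearly all events in the CDS, some in introns, and some in small nucleolar RNAs (snoRNAs) processed from their introns.

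**Figure D2:**
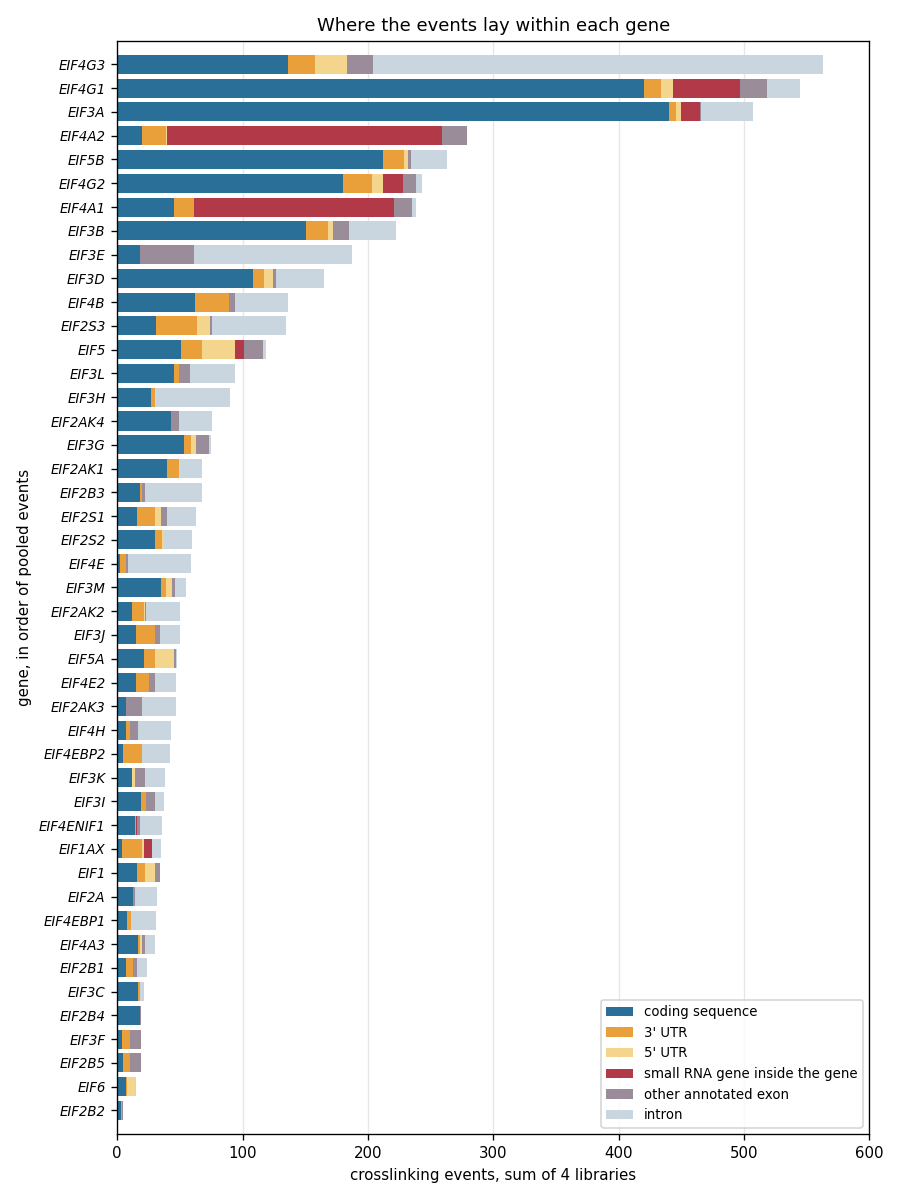
Pooled crosslinking events on each of the 45 genes (rows), stacked by region. EIF3A, EIF4G1, EIF5B and EIF4G2 are mostly coding sequence, EIF4G3 and EIF3E mostly intron, and EIF4A1 and EIF4A2 mostly small RNA genes.

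Subunits of eIF3, the complex of 13 subunits that organises the 43S particle, held 31.0% of the events on the list, and 60.5% of their events were in the CDS. EIF3A, which encodes the largest subunit (GRCh38 chr10:119033670-119080817, minus strand), had 101, 248, 47 and 111 events in replicates 1 to 4, a mean of 426 CPM ± 136 (SD, n = 4). Its CPM was between 302 and 374 in replicates 1 and 3, 410 in replicate 2 and 618 in the beads library. Of its 507 events 440 were in the CDS, 41 in introns, 15 in the snoRNA SNORA19, 6 in the 3′ UTR and 4 in the 5′ UTR. Per length, EIF3A was the most crosslinked CDS of the list with 106 pooled events per kb, or 91.9 CPM per kb ± 27.4.

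The 12 significant clusters deposited for EIF3A held 284 cDNAs, more than for any other member. Windows of 30 nt around the summits of some of these clusters, chosen after the values were seen, are shown because they place the crosslinked base, always the sixth letter, relative to the purine pentamers that the study singled out. Sequences are given 5′ to 3′ as DNA from GRCh38 on the transcript strand, with capitals on the pentamer GANGA, where N is A, G or C, overlapping matches included. Clusters of 40, 31 and 16 cDNAs have summits at chr10:119056966 (11, 13, 12 and 4 cDNAs in replicates 1 to 4), chr10:119037269 (3, 15, 7 and 6) and chr10:119058297 (8, 7, 0 and 1).
EIF3A 119056966: gaacttcaagaacgcctaaagaatcaagaa
EIF3A 119037269: aatcttcaagctggagagactcaagtcgcc
EIF3A 119058297: aagagaaaGAAGAacagcatcagttggctg
In the last window a motif begins 3 bases after the crosslinked base, and the other 2 hold none within these letters. The letters end 24 nt downstream of that base. Within 30 nt downstream, the distance used for the counts of nearness below, the summits of the other 2 also had a motif. Events along the EIF3A coding sequence were uneven. The 500 nt from position 2001 to 2500 of the CDS, 12.1% of its length, held 28.6%, 28.8%, 44.7% and 26.8% of the CDS events in replicates 1 to 4, whereas the first 500 nt held at most 5.4% in any library.

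The other subunits of eIF3 carried fewer events. EIF3B, an RNA-binding subunit (chr7:2354086-2380745, plus strand), had 57, 105, 25 and 35 events in replicates 1 to 4, a mean of 184 CPM ± 14.4. Its CDS held 151 of 222 events, or 61.8 per kb. EIF3D, a subunit that can itself contact the cap, had 40, 79, 7 and 39 events (131 CPM ± 66.4), and 108 of its 165 events were in the CDS at 65.6 per kb. The last stretch of the EIF3D CDS, from position 1501 to 1647, made up 8.9% of its length and held 26.9% of its CDS events, with 2, 20, 0 and 7 events by library. A cluster of 28 cDNAs (2, 19, 0 and 7) lies there on chromosome 22, and its window is shown beside that of the largest EIF3B cluster (20 cDNAs, 4, 14, 0 and 2) on chromosome 7, which lacks the motif.
EIF3D 36511531: GAGGAAGAGGAGGAGGAAGAAGAGGAAGAa
EIF3B 2364394: tgtgcgttggtctcctaagggcacctacct
The EIF3D window, chr22:36511507-36511536 on the minus strand, is purine throughout and holds 9 overlapping motifs. The EIF3B window, chr7:2364389-2364418 on the plus strand, holds 12 purines of 30 bases.

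EIF3G, whose product binds RNA and scanning partners, had 18, 41, 4 and 12 events, and EIF3L, which encodes another subunit, had 21, 44, 12 and 17. EIF3G reached 55.0 CDS events per kb, although its CDS had no event in replicate 3. EIF3M, a subunit of the octamer core, had 2, 40, 3 and 10 events, so that replicate 2 supplied most of them. EIF3H, another core subunit, had 90 events, of which 59 were intronic and 27 in the CDS (4, 17, 0 and 6 by library). EIF3C had 3, 10, 3 and 5 events, but a near-identical copy, EIF3CL, lies in the genome and held 6 more, so with uniquely mapped reads the level of EIF3C is uncertain.

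EIF3E, whose product is also a core subunit, is a case apart. It had 69, 74, 3 and 41 events, but 100 of the 187 (24, 42, 1 and 33) lay outside the span of its canonical transcript, in introns and exons of longer annotated transcripts on chromosome 8. A single nucleotide there carried 65 events, inside a cluster of 72 cDNAs (14, 29, 0 and 29). The 60 bases downstream of that nucleotide shared a run of 26 identical bases with the 28S part of the ribosomal RNA precursor RNA45SN2, the longest such run among the 70 pooled clusters of the list, whose median run was 9 bases and whose next longest was 17. This comparison was made after the cluster was seen, and whether the cDNAs came from EIF3E RNA was not tested. Inside the canonical span EIF3E kept 87 events, 18 of them in the CDS.

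Genes for cap binding and unwinding held 42.8% of the events on the list, and they contained all 3 layouts. EIF4G1, the main scaffold that bridges cap and ribosome (chr3:184314495-184335358, plus strand), had 82, 287, 22 and 154 events in replicates 1 to 4. Its CPM was 245, 475, 175 and 857, a mean of 438 ± 307, so that the beads library stood above the others. The CDS held 420 of its 545 events (65, 223, 13 and 119), or 87.5 per kb, second to EIF3A. They were spread along the CDS, and no bin of 500 nt held more than 17.1% of the pooled CDS events. A further 54 events (6, 26, 0 and 22) lay in the snoRNA SNORD66.

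EIF4G2 (DAP5), a relative of eIF4G that lacks the site for eIF4E (chr11:10797050-10808940, minus strand), had 71, 121, 11 and 40 events, a mean of 181 CPM ± 62.8. Its CDS held 180 of 243 events, or 66.1 per kb. In replicate 3, however, 10 of its 11 events fell within 1 bin of 50 nt. EIF4G3, the scaffold closest to EIF4G1 (chr1:20806292-21177285, minus strand), had more events than EIF4G1 and a different layout. It had 187, 248, 46 and 82 events (448 CPM ± 83.1), with 359 in introns (136, 149, 28 and 46) and 136 in the CDS (33, 58, 17 and 28). Per length its CDS carried 27.6 events per kb, and its long introns 0.98 per kb, against 1.75 per kb from 27 events in the introns of EIF4G1. A window at a CDS cluster of each scaffold is given, the EIF4G1 cluster with 13 cDNAs (4, 5, 0 and 4) and the EIF4G3 cluster with 11 (0, 5, 0 and 6).
EIF4G1 184321940: ccagctcagGAGGAGGAaatgGAAGAAGAa
EIF4G3 20860407: ctcatgaccaaagaGAAGAGAAGAccaggt
Both windows, chr3:184321935-184321964 and chr1:20860383-20860412, hold motifs downstream of the crosslinked base, overlapping in EIF4G1 and adjacent in EIF4G3. They were chosen for their motifs after the values were seen, and the other CDS clusters of EIF4G3, larger with 17 and 13 cDNAs, hold none in their windows.

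The helicase genes EIF4A1 and EIF4A2, which encode near-identical enzymes, were crosslinked mainly in the snoRNAs of their introns. EIF4A2 (chr3:186783205-186789897, plus strand) had 62, 115, 21 and 81 events, of which 43, 84, 18 and 74 lay inside small RNA genes. The box C/D snoRNA SNORD2 alone had 109 (13, 41, 5 and 50), and SNORA81, SNORA63 and SNORA4, which guide pseudouridylation, had 51, 45 and 13. EIF4A1 (chr17:7572824-7579006, plus strand) had 43, 105, 37 and 53 events, of which 27, 64, 33 and 36 lay inside small RNA genes: SNORA48 had 91 (18, 30, 27 and 16), SNORA67 had 48 and SNORD10 had 21. EIF4A1 and EIF4A2 together carried 79.1% of the small RNA events of the whole list. Without events in small RNA genes, a count added after the data were seen, EIF4A1 kept 78 events and EIF4A2 60, far under the minimum of 200. The mature CDS of EIF4A1 had 45 events (10, 22, 0 and 13) and that of EIF4A2 20 (3, 14, 0 and 3).

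The largest clusters on the list were those in SNORD2, with 114 cDNAs (14, 44, 5 and 51), and in SNORA48, with 94 (18, 32, 28 and 16). Their summit windows are shown as those of the largest clusters, and neither holds the motif, whereas the window of the cluster of 41 cDNAs (14, 8, 13 and 6) in SNORA81 holds 1.
SNORD2 in EIF4A2: ccttaaagtgaaatgatggcaatcatcttt
SNORA48 in EIF4A1: ggcttttgatccgtgcccatgcctggttca
These windows lie at chr3:186784791-186784820 and chr17:7574802-7574831, both on the plus strand. SnoRNAs are released from introns and persist after splicing, so an event in them need not lie on the host mRNA.

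**Figure D3:**
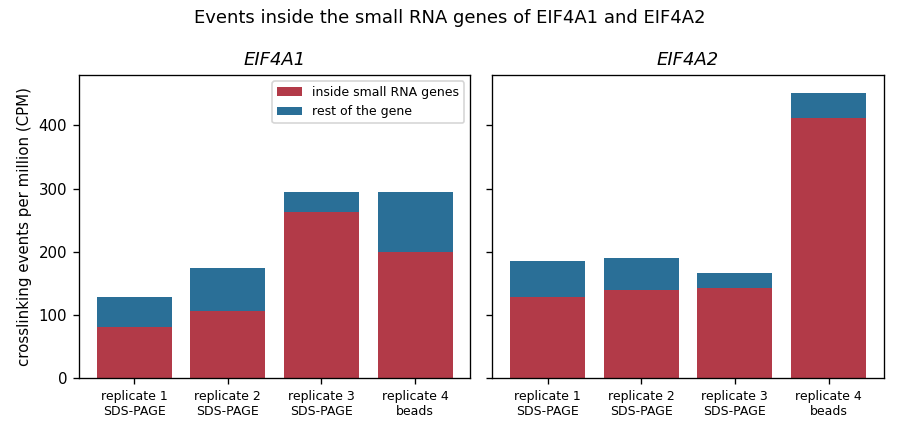
CPM of EIF4A1 and EIF4A2 in each library, as bars split into events inside small RNA genes (red) and events in the rest of the gene (blue). Small RNA genes make up the larger part of every bar, and the EIF4A2 bar of the beads library, at 451 CPM, is more than 2 times the next one at 190.

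EIF4B, a cofactor of the helicase, had 38, 59, 16 and 23 events (117 CPM ± 14.3), with 62 in the CDS, 42 in introns and 27 in the 3′ UTR. Of those 3′ UTR events, 9 were from replicate 3 alone and fell on a single nucleotide. EIF4E, the cap-binding protein itself, had 16, 40, 0 and 3 events, and 50 of these 59 were intronic and only 2 in the CDS. EIF4E2, a cap-binding relative that represses, had 21, 17, 0 and 9 events. EIF4H, a small cofactor of the helicase, had 43 events, of which 26 were intronic. The partners that hold eIF4E back, EIF4EBP1, EIF4EBP2 and EIF4ENIF1, had 31, 42 and 36 events, and none of them had a cluster.

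Among the factors for start site selection and subunit joining, EIF5B stood out. EIF5B, the GTPase that joins the large ribosomal subunit (chr2:99337371-99401326, plus strand), had 50, 122, 9 and 82 events and 150, 202, 71.6 and 456 CPM, a mean of 220 ± 167. The beads library was above the rest, and replicate 3 rested on 9 events. Its CDS held 212 of 263 events, or 57.9 per kb. The stretch from position 501 to 1000 of the CDS, 13.7% of its length, held 11.1%, 35.8%, 44.4% and 33.3% of the CDS events in replicates 1 to 4, and the stretch from 2001 to 2500 held 2.4% of the pooled ones. EIF5B also had the CDS richest in codons for aspartate, glutamate and lysine among the members with the densest CDS, at 37.2% of codons against a median of 20.8% over the list and 17.01% over all protein-coding genes. The list of replicate 2 alone placed an EIF5B CDS cluster of 21 cDNAs at chr2:99361534-99361645, with 1 motif in its summit window. In the pooled list the largest CDS cluster of EIF5B, 15 cDNAs (1, 8, 0 and 6), has 4 motifs in its window, 3 of them overlapping, at chr2:99363775-99363804.
EIF5B 99363780: gcttaaaGAGGAAGAAGAaagacaGAAGAg
EIF5, the activator of the eIF2 GTPase, had 23, 51, 12 and 33 events, with 51 in the CDS and 26 in the 5′ UTR (1, 14, 6 and 5). EIF1, which guards the start codon, had 5, 17, 0 and 12 events, and its short CDS reached 46.8 per kb from 16 of them. EIF1AX had 35 events and EIF6, an anti-association factor, 15, with no cluster in either.

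**Figure D4:**
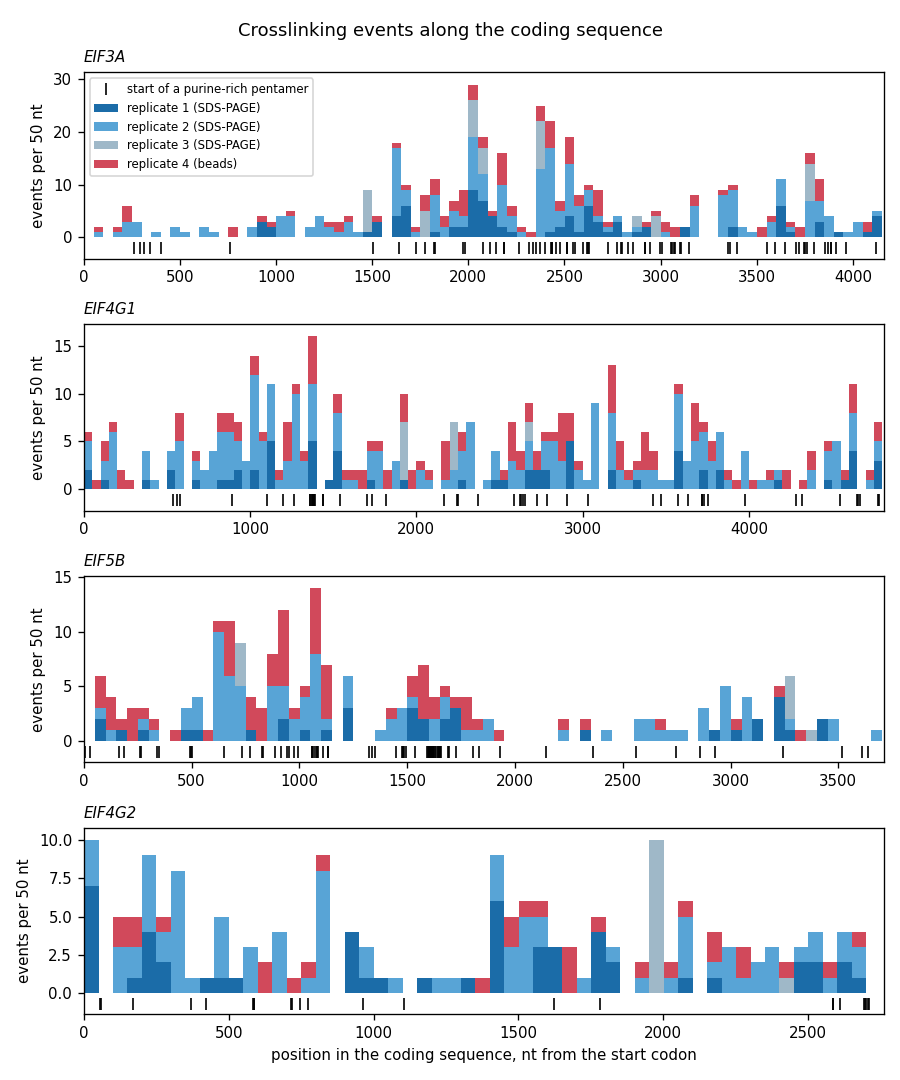
Crosslinking events in bins of 50 nt along the coding sequences of EIF3A, EIF4G1, EIF5B and EIF4G2, stacked by library, with ticks at starts of the purine-rich pentamers of the GANGA type. EIF3A events gather between 1500 and 3000 nt and EIF5B events between 500 and 2000 nt. Ticks are dense in much of both stretches, but events do not rise with them throughout. In EIF5B, 66 events lie at 501 to 1000 nt and 35 at 1501 to 2000 nt, where its ticks are densest. EIF4G1 events are spread along the whole CDS, and several single tall bins of replicate 3 stand out, as in EIF4G2.

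The subunits of eIF2, which carries the initiator tRNA, were modest. EIF2S3, the GTP-binding subunit, had 33, 80, 0 and 22 events, spread over intron (59), 3′ UTR (33), CDS (31) and 5′ UTR (10). EIF2S2, the beta subunit, had 19, 20, 6 and 15 events, with 30 in the CDS. Of these, 22 (2, 7, 0 and 13) were near a GANGA motif, as were 48.8% of the positions of its CDS. EIF2S1, the alpha subunit that the stress kinases phosphorylate, had 18, 32, 0 and 13 events, with 16 in the CDS. The 5 eIF2B genes held 2.68% of the events on the list and between 5 and 68 events each, and none had a cluster. The 4 kinase genes held between 47 and 76 events each, again with no cluster. The most crosslinked kinase transcript was EIF2AK4 (GCN2, the sensor of uncharged tRNA) with 21, 38, 11 and 6 events, of which 43 lay in the CDS. EIF5A, whose product acts mainly in elongation, had 8, 16, 15 and 9 events, of which 15 were in the 5′ UTR. Its CDS density of 45.2 per kb rested on 21 events, 9 of them from replicate 3 and on a single nucleotide, and it has near-identical copies in the genome. EIF4A3, a helicase of the exon junction complex, had 30.

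Ordered by CDS events per kb, the members ran EIF3A (106), EIF4G1 (87.5), EIF4G2 (66.1), EIF3D (65.6), EIF3B (61.8), EIF5B (57.9), EIF3G (55.0), EIF1 (46.8), EIF5A (45.2) and EIF5 (39.4). On the CPM scale per kb, EIF3A had 91.9 ± 27.4, EIF4G1 had 69.2 ± 51.3, EIF5A had 59.0 ± 65.0, and EIF4G2, EIF3D, EIF3B and EIF5B lay between 50.3 and 55.6 with SDs from 12.5 to 40.5. None of these neighbours was apart by more than its spread over libraries. The median over the 40 members with at least 20 events was 20.7 per kb, against 7.37 over all protein-coding genes with at least 20 events.

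Event density in the CDS was compared with that in the 3′ UTR of the same canonical transcript with edgeR's quasi-likelihood test, with the library as a block, over 4253 genes with at least 20 events in both regions together. The question was whether crosslinking was denser in translated than in untranslated sequence of these mRNAs. Of 29 members tested, 6 were denser in the CDS at an adjusted p below 0.05, against 11.7% of all genes tested, and 0 were denser in the 3′ UTR, against 0.212%. The 6 were EIF3A, EIF5B, EIF3H, EIF3M, EIF5 and EIF1. In all 12 members passed an unadjusted p of 0.05 in this direction and 0 in the other, and 1250 and 19 of the 4253 genes did, while DESeq2 called 7 and 0 members in the same directions. DESeq2 gave no adjusted p for 7 of the members. The median log2 ratio was 1.64 over members and 1.47 over all genes tested.

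EIF3A had 91, 205, 47 and 97 events in the CDS and 0, 2, 0 and 4 in a 3′ UTR of 2369 nt, that is 106 against 2.53 per kb. Its log2 ratio was 5.46 with an SE of 0.83, and edgeR's quasi-likelihood test with Benjamini-Hochberg adjustment gave an adjusted p of 3.0e-08. In every library the CDS was denser than the 3′ UTR. EIF5B had 36, 95, 9 and 72 events in the CDS against 1, 14, 0 and 2 in the 3′ UTR, with a log2 ratio of 3.26 (SE 0.84, edgeR adjusted p = 0.0037). The call for EIF5B was lost without replicate 1, 2 or 4, when edgeR's adjusted p was 0.068, 0.094 and 0.20. EIF3H (log2 4.09, edgeR adjusted p = 0.010) and EIF3M (log2 4.28, edgeR adjusted p = 0.013) rested on 27 and 35 CDS events and 3 and 4 UTR events, and both lost the call without replicate 4, with adjusted p of 0.15 and 0.092, and with no minimum of events, with 0.064 and 0.065. Neither had enough events to be tested without replicate 2, which held 17 and 29 of their CDS events. EIF5 (log2 3.23, edgeR adjusted p = 0.014) had 51 CDS events against 17, and it lost the call without replicate 1, 2 or 4 or with no minimum of events, with adjusted p up to 0.29. EIF1 (log2 3.73, edgeR adjusted p = 0.021) had 16 against 6, and with no minimum of events its adjusted p was 0.13. It had too few events to be tested without replicate 2 or 4, or with each position counted once.

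The remaining leading genes did not pass, which does not show that their regions were equal. EIF4G1, with 65, 223, 13 and 119 CDS events against 1, 9, 0 and 4 in a 3′ UTR of only 445 nt, had a log2 ratio of 1.70 (SE 0.79, edgeR adjusted p = 0.13). EIF4G2 and EIF3B had log2 ratios of 1.31 and 1.35 (SE 0.77 and 0.82, edgeR adjusted p = 0.23 and 0.25). For EIF4G3 the densities were 27.6 and 26.2 per kb, and for EIF3D, with a 3′ UTR of 132 nt, 65.6 and 68.2. EIF2AK4 had 43 CDS events and none in its 3′ UTR of 507 nt, with a log2 ratio of 5.59 (SE 2.64, edgeR adjusted p = 0.13). If 3 pooled events are assumed in that 3′ UTR, its CDS was 1.47-fold denser, a figure that leaves out the spread between libraries.

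**Figure D5:**
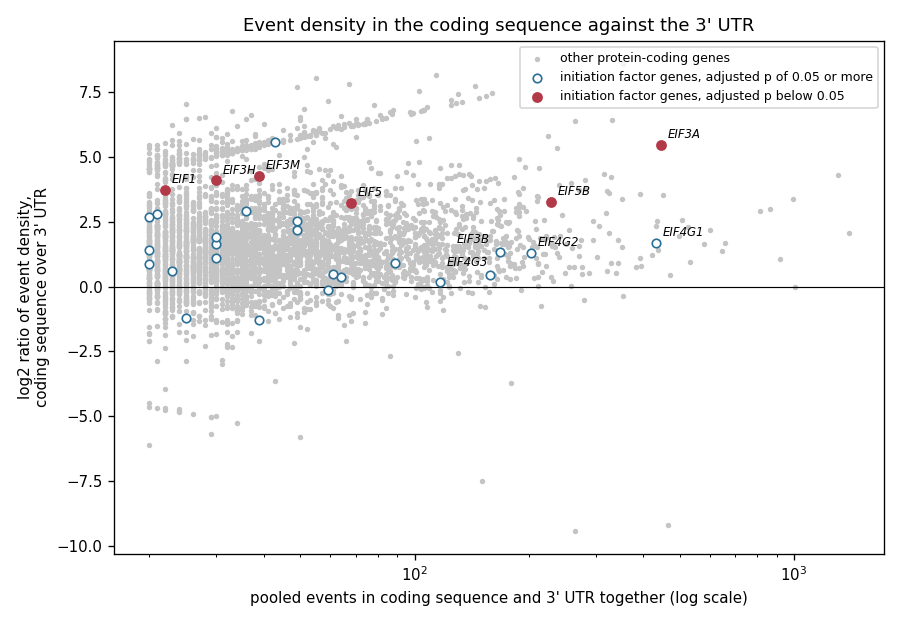
Log2 ratio of event density in the CDS over that in the 3′ UTR (vertical) against the pooled events in both regions (horizontal, log scale) for 4253 genes, with other protein-coding genes in grey, called members filled and other members open. The 6 called members lie between 3.23 and 5.46, EIF3A is the deepest of them, and the other members lie within the grey cloud.

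The next comparison asked whether CDS events lay near GANGA pentamers, that is at positions where such a pentamer started from 5 nt upstream to 30 nt downstream on the spliced transcript. In the members, 39.2%, 37.0%, 45.2% and 43.97% of CDS events were near such a motif in replicates 1 to 4, against 31.1%, 30.5%, 34.9% and 31.7% for events placed evenly along each CDS. The observed share was higher in 4 of 4 libraries. Over all protein-coding genes the shares were 31.6% observed and 24.9% for even placement. The members' coding sequences held more motifs to begin with, with a median of 8.45 per kb against 6.12.

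Gene by gene, edgeR's quasi-likelihood test of density near motifs against the rest of the same CDS called 0 of 20 members tested, against 0.539% of 2968 genes called higher and 0.0674% called lower. Of the 20 members 15 had a ratio above 0 on the log2 scale, 1 passed an unadjusted p of 0.05 in the higher direction, as did 153 of the 2968 genes, and DESeq2 called 1, which was EIF3A in both cases. DESeq2 gave no adjusted p for 13 of the members. EIF3A had 50, 127, 32 and 59 events near motifs, 268 of 440, or 148 per kb against 73.5 per kb elsewhere in the CDS. Its log2 ratio was 1.03 (SE 0.34, edgeR adjusted p = 0.25), and without replicate 3 it was 0.92 with an adjusted p of 0.013. EIF5B had 121 of 212 CDS events near motifs, a log2 ratio of 0.93 (SE 0.50, edgeR adjusted p = 0.82), and without replicate 3 a ratio of 1.06 with an adjusted p of 0.023. For EIF4G1 the ratio was 0.65 (SE 0.41), for EIF3B 0.15 (SE 0.55) and for EIF4G3 0.03 (SE 0.58), and the difference between these genes and EIF3A was not tested. The pooled densities of EIF3B went the other way, with 58.2 per kb near motifs and 64.2 per kb elsewhere in the CDS.

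Across genes, the pooled CDS density was set against the content of the CDS as a description. Over the 20 members with at least 20 CDS events, Spearman's rho of CDS events per kb was 0.60 with GANGA motifs per kb and 0.53 with the share of codons for aspartate, glutamate and lysine, against 0.31 and 0.26 over 3026 protein-coding genes. All points share the 4 libraries and the unknown RNA levels, and the values for members depended on the minimum of events. Over the 10 members with at least 50 CDS events they were 0.08 and -0.26, and over the 1047 protein-coding genes with as many 0.33 and 0.27. Whether the shallow members made this difference was not tested.

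The deposited list of significant clusters for the pooled libraries placed 70 clusters in 19 of the 45 genes, while 11.3% of protein-coding genes had a cluster. These clusters held 1446 cDNAs, or 28.7% of the events on the list. CDS clusters numbered 46 with 741 cDNAs, and 24 of their summits (52.2%) were near a GANGA motif. For all CDS events of the members, even placement along each CDS gave a mean of 32.1% over libraries. Positions near a motif made up 43.6% of the CDS of EIF3A and 26.7% of that of EIF4G1, the genes with the most clusters. The share of summits near a motif was not counted for CDS clusters of all protein-coding genes. The 9 clusters in small RNA genes held 454 cDNAs, and of the rest 6 lay in 3′ UTRs, 5 in 5′ UTRs, 2 in introns and 2 in other exons. No UTR summit was near a motif on the spliced transcript, and outside CDS and UTRs nearness was not counted. EIF3A and EIF4G1 had 12 clusters each. The lists of single libraries placed clusters in 4, 12, 3 and 5 of the genes in replicates 1 to 4. In 48 of the 70 pooled clusters replicate 3 had no event, and in 6 it supplied most of them.

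Purification with beads was compared with SDS-PAGE on event counts per gene, 1 library against 3, so purification and library cannot be told apart. The beads CPM was above every SDS-PAGE library in 22 of the 45 genes, against 22.5% of protein-coding genes, and below every one in 3, against 12% of them. The beads library also had the highest CDS share over all protein-coding genes, 40.8% against 18.7% to 30.3%, and its part in this count was not tested. Both shares of protein-coding genes above or below include genes without events, since only 16867 of 20033 had any. Shares over genes as deep as the members were not computed. edgeR's quasi-likelihood test called 0 of 35 members tested, and 0 of 7759 genes in either direction (0% of them). At an unadjusted p of 0.05 it had 3 members higher with beads and 0 lower, and 74 and 45 of all genes tested, and DESeq2 called 0, with 2 at that unadjusted p. The 3 were EIF5B (log2 1.52, SE 0.56), EIF4G1 (log2 1.37, SE 0.55) and EIF4A2 (log2 1.22, SE 0.50), each with an edgeR adjusted p of 0.99995. EIF4G3 (log2 -0.05, SE 0.51) and EIF3B (log2 0.03, SE 0.56) had differences under their SE.

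Related genes outside the list were counted in the same way. Of 14 other initiation genes none reached 200 events, with a median of 23 and at most 123, on PABPC1, which encodes the poly(A)-binding protein. Among 6 genes that work with eIF2 in the stress response, the median was 89 events and the highest GCN1, the activator of EIF2AK4, with 189.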

How the data were processed

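PR100-FLAG iiCLIP libraries (4, HEK293T) were analysed from the deposited lists of crosslinked positions, which give raw counts, the number of unique cDNAs at each stranded position. The authors removed PCR duplicates by random barcode, mapped reads with STAR to GRCh38 with Gencode annotation, kept unique hits and called significant clusters. The version of STAR and the distance for joining clusters are not given in the sources used here. The pooled list of 784115 positions equalled the sum of the libraries.

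Events were placed on GENCODE 44, later than the authors' annotation, in the order CDS, 3′ UTR, 5′ UTR of the canonical transcript, small RNA genes, other exons, intron. Overlapping genes (SENP3-EIF4A1 with EIF4A1, and unnamed genes with EIF5 and EIF6) share events. edgeR 4.0.16 quasi-likelihood tests (R 4.3.3) used library totals and region lengths as offsets, at least 20 events and 100 nt per region, with Benjamini-Hochberg adjustment over all genes tested; beads against SDS-PAGE used TMM factors. SEs were derived from the F statistic. DESeq2 1.42.0 was an alternative. Tables and figures used Python 3.11.15, numpy 2.4.6, pandas 2.3.3 and matplotlib 3.10.9.

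The members and lists were chosen with earlier results of these data known. Values by library are given for members with at least 200 events, the 10 densest coding sequences, members with a pooled cluster and called members; those of EIF4E, EIF2S1 and EIF2AK4 were added after their values were seen. On simulated data with 4253 genes the CDS against 3′ UTR test recovered 3.03%, 10.4% and 37.3% of genes changed by a log2 of 1, 2 and 3. With 2968 genes, the test near GANGA motifs recovered 1.52%, 10.4% and 35.8%. With 7759 genes, the beads test recovered 0%, 4.48% and 16.4%. The simulations gave every gene the same dispersion and made changes in both directions, so these shares need not hold for the data. In that of CDS against 3′ UTR, unchanged genes had equal density in both regions, whereas the data had a median log2 ratio of 1.47. The closing section gives the alternatives. The counts cover counting error and the spread between libraries only. The sequence at 1 EIF3A cluster is not reported here.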

Additional observations from a re-analysis of the deposited data

Results flagged for a closer look

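With 4 libraries and 45 genes, 3 CPM values lay far from the other libraries of the gene by Dixon's criterion, and chance flags about 1 in 20 genes. EIF4A2, the helicase gene rich in snoRNAs, had 451 CPM in replicate 4, the beads library, and the nearest library had 190. EIF4G2, the DAP5 gene, had 87.5 CPM in replicate 3 with the nearest library at 200.1. EIF3H, an eIF3 core subunit gene, had 7.96 CPM in replicate 3 with the nearest at 72.4. Replicate 3 is also the smallest library.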

How the results depend on the processing

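A gene with 55 pooled events has few in each library, and with 4 libraries of 1 condition a missed call says little. Alternatives were the tool, the filters, the block, counting each position once, other region definitions, overlapping genes, motif and window, and leaving out each library. EIF3A stayed denser in the CDS than in the 3′ UTR in all 11 alternatives (edgeR or DESeq2 adjusted p up to 0.021). The cause of the changes below was not tested.

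Members called denser in the CDS numbered 2 with no minimum, 3 with a minimum of 50 events and 10 with each position counted once, and 1 to 11 without single replicates (1 without replicate 2 or 4, 11 without replicate 3). Over all genes the 498 higher calls became 257 with no minimum, 1052 with each position once, 756 with any coding transcript and 38 to 878 without single replicates. The 9 lower calls became 5 with a minimum of 50 or without positions of other coding genes and 2 to 12 without single replicates.

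Near GANGA motifs, DESeq2 and a window of 30 nt on either side each called 1 member, and counting each position once called 2, EIF3A and EIF5B. Leaving out single replicates called 0 to 2 members. The 16 higher calls over all genes became 26 with DESeq2, 7 without the block, 124 with each position once and 3 to 87 without single replicates. The 2 lower calls became 1 with DESeq2, no minimum, no block or GAAGA alone, and 1 to 3 without single replicates.

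For beads, no alternative called a member. Over all genes no filter gave 1 higher call, each position once gave 2 higher and 2 lower, and leaving out single replicates gave 0 to 7 higher and 0 to 2 lower.

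A minimum of 100 or 400 events kept 13 or 3 genes, each position once 3, and leaving out single replicates 3 to 8. Clusters of at least 20 cDNAs were in 7 members, and in 467 of the 20033 protein-coding genes. The lists of replicates 1, 2, 3 and 4 alone had clusters in 4, 12, 3 and 5 members, against 166, 780, 307 and 166 protein-coding genes. With at least 50 CDS events, rho was 0.079 with motifs and -0.26 with codons, which reversed the sign. Without single replicates it was 0.45 to 0.59 and 0.26 to 0.53. Added after seeing the data, EIF3E inside its canonical span had 87 events, and EIF4A1 and EIF4A2 without small RNA genes 78 and 60. The tests between regions are paired within libraries by the block. Without it, EIF3A kept its call in the CDS against 3′ UTR comparison.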
